A study of Homo sapiens with 30 samples.

Results

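The ETS transcription factor ERG was mapped by chromatin immunoprecipitation and sequencing in RWPE1-ERG/mAKT cells and in VCaP cells, with 1 ERG library per line, and the positions it occupied in the 2 lines were compared. Every ERG peak that the deposited MACS2 lists place on an assembled main chromosome was taken, which gave 9113 peaks in RWPE1-ERG/mAKT cells and 5916 in VCaP cells, or 15029 in all. A peak was called shared when it overlapped a peak of the other line by at least 1 bp, and RWPE1-only or VCaP-only otherwise. These libraries are 2 of the 30 samples of the series, which also holds RNA-seq, ATAC-seq and other ChIP-seq of RWPE1 derivatives.

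RWPE1 is an immortalised line of normal human prostate epithelium. Its ERG/mAKT derivative was made by retroviral transduction of FLAG-tagged ERG (isoform 1) and of myristoylated AKT (mAKT), a form of the kinase held at the membrane and constitutively active, and it was grown in keratinocyte medium. It is a drug-selected population in which both proteins are driven by the retroviral constructs. VCaP is a prostate cancer line that makes ERG from its own TMPRSS2-ERG rearrangement, and the cells used here received DMSO, the vehicle of an inhibitor arm, on days 1, 3 and 6. The same ERG antibody was used in both lines. The study also reports a second ERG ChIP-seq of ERG/mAKT cells, which was not analysed here. With 1 library of each line in use, no test between the lines was possible. Line, medium, vehicle and library also changed together, and their parts in any difference cannot be told apart. Whether the sequencing run differed as well was not examined.

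ERG belongs to the ETS family, whose DNA-binding domain reads GGAA within a longer sequence, most often A or C before the core and AGT after it. In endothelium ERG maintains lineage genes, and in prostate it is silent until a rearrangement places it under the androgen-driven TMPRSS2 promoter. ETS proteins often bind beside AP-1, the JUN and FOS dimer, and in androgen-responsive prostate cells ERG is known to share sites with the forkhead factor FOXA1. AKT is the central kinase of PI3K signalling, and its activation with ERG transforms prostate epithelium. The comparison asks how far ERG occupies the same positions in a normal-derived epithelium given both proteins as in a cancer line with an endogenous fusion.

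The transgenes were seen in the pooled RNA-seq of the RWPE1 lines. ERG was at an FPKM (a fragment count scaled by gene length and library size) of 0.264 in vector cells and 328 in ERG/mAKT cells, and AKT1 was at 58.7 and 281. RWPE1-ERG/mAKT cells had the basal markers KRT5 at 3519, KRT14 at 1185 and TP63 at 38.0, and the luminal keratins KRT8 at 921 and KRT18 at 958. Of the luminal genes KLK3 was listed at 0 and FOXA1 was at 3.19. These FPKM values are the authors' pool of 3 libraries a line, so they carry no error here. RNA-seq of VCaP cells was not analysed here.

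The sequences under the strongest shared peaks are shown first, because they are the positions with the highest enrichment in both lines. Each is the 201 bp of the hg19 reference, plus strand, centred on the RWPE1-ERG/mAKT summit, the base with the highest read pileup. The VCaP summits lay 123, 163, 271, 31 and 325 bp away, in the order shown. Of these windows only that of MPRIP holds the VCaP summit. Capitals mark the words AGGAAGT and CGGAAGT (called an ETS site), GGAAGGAA (paired GGAA) and TGACTCA or TGAGTCA (an AP-1 site), read on either strand. The windows of CD180 and MPRIP hold ETS sites, and that of MPRIP also holds the paired core and an AP-1 site.
CUL2, chr10:35295021-35295221: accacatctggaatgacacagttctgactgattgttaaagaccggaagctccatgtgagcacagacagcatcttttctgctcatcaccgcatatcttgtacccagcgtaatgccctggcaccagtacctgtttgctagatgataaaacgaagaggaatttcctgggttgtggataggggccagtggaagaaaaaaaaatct
CD180, chr5:66544634-66544834: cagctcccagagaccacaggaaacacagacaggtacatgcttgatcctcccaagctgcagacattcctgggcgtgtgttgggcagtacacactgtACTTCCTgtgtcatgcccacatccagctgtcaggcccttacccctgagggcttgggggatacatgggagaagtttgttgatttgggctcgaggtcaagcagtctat
SKI, chr1:2187182-2187382: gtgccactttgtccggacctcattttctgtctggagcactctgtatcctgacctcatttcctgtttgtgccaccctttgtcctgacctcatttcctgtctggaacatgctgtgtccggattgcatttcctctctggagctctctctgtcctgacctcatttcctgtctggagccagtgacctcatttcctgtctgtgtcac
MPRIP, chr17:16914423-16914623: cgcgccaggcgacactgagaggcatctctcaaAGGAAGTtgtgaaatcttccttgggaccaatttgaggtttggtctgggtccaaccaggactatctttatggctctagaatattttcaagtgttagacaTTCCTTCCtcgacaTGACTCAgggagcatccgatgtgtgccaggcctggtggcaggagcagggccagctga
SDHA, chr5:252124-252324: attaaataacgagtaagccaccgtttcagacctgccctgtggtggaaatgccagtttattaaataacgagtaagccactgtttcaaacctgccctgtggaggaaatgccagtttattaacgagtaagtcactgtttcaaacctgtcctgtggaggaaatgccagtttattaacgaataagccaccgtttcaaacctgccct

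The strongest of the 5 stood 2.36 kb from CUL2, a scaffold of cullin-RING ubiquitin ligases, with a fold enrichment over input of 6.78 in RWPE1-ERG/mAKT cells (MACS2 q = 3.88e-05) and 6.57 in VCaP cells (q = 3.61e-07). The peak 52.1 kb from CD180, a Toll-like receptor homologue of B cells, had 7.43-fold and 6.42-fold enrichment. In an intron of SKI, a repressor of TGF-beta signalling, the peak had 6.20-fold and 6.37-fold enrichment, and its window held CAGGAAAT in 4 copies, a word outside the ETS site as defined here. The peak 31.6 kb from MPRIP, a regulator of myosin phosphatase, had the highest RWPE1-ERG/mAKT value of the 5, at 8.47-fold, against 6.13-fold in VCaP cells. An intron of SDHA, a subunit of succinate dehydrogenase, carried the fifth peak, at 6.36-fold and 5.70-fold. All 5 lay in chromatin that was open by ATAC-seq in RWPE1-ERG/mAKT cells. Of the 5 windows at RWPE1-ERG/mAKT summits, 3 held no ETS site.

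The next set shows peaks of 1 line at genes whose values are given further on: IL4R, JUN and ELF3 from RWPE1-ERG/mAKT cells, and SETD4, ELK4 and TMPRSS2 from VCaP cells. Capitals are as above. The windows of JUN, ELF3, ELK4 and TMPRSS2 hold an ETS site, that of SETD4 holds the paired core and an AP-1 site, and that of IL4R holds none of the marked words.
IL4R, chr16:27326962-27327162: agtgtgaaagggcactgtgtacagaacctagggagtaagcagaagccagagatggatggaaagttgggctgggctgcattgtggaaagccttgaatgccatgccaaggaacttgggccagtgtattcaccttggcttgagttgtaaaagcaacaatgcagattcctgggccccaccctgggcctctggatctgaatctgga
JUN, chr1:59221252-59221452: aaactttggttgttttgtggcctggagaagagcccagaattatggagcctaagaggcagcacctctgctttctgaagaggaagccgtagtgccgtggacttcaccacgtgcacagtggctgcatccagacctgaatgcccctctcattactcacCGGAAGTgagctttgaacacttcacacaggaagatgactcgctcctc
ELF3, chr1:202025838-202026038: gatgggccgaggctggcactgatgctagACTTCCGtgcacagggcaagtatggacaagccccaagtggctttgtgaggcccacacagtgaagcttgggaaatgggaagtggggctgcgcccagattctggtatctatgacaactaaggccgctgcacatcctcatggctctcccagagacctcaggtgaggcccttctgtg
SETD4, chr21:37418385-37418585: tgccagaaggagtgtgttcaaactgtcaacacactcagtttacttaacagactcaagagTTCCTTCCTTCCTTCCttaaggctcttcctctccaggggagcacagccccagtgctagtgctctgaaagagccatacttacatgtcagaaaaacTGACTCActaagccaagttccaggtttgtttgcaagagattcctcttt
ELK4, chr1:205600336-205600536: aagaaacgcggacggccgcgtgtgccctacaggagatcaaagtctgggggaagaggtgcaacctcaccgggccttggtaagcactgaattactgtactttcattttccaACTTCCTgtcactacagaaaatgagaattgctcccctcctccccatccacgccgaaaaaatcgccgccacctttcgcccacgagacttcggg
TMPRSS2, chr21:42878566-42878766: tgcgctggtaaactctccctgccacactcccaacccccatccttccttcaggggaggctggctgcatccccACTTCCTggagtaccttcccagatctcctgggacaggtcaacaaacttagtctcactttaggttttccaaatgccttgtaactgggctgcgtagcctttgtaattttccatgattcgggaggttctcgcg

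Few ERG peaks coincided in the 2 lines. Of the 9113 RWPE1-ERG/mAKT peaks, 114 overlapped a VCaP peak, or 1.25% (95% Wilson interval 1.04 to 1.50), and of the 5916 VCaP peaks 111 overlapped an RWPE1-ERG/mAKT peak, or 1.88% (1.56 to 2.25). Intervals here and below cover counting error alone. For scale, VCaP peaks widened by the median RWPE1-ERG/mAKT width covered 2.30 Mb, or 0.0804% of the 2859 Mb of known bases, and the same measure in the other direction was 3.25 Mb, or 0.114%. The shared share of each list was thus larger than the share of genome within reach of the other list, although neither line's peaks are spread evenly over the genome.

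The lists differ in peak width and in how many peaks pass a strict limit, which bears on the counts. RWPE1-ERG/mAKT peaks were called from 10306483 ChIP and 14670664 input tags, were 109 bp wide at the median, were enriched 3.53-fold at the median (range 2.62 to 55.8), and 450 of them (4.94%) had a MACS2 q of at most 0.01. VCaP peaks were wider, at a median of 223 bp, with a like median enrichment of 3.59-fold (1.13 to 8.83), and 1554 (26.3%) had such a q. The tag number of the VCaP library is not stated in the sources used here. The peaks nearest the limit had q of 0.00898 inside and 0.0112 outside it in RWPE1-ERG/mAKT cells, and 0.00984 and 0.0101 in VCaP cells. Both lists were called at p of 0.001 or lower, and most of their peaks fail the stricter limit.

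Among peaks with a q of at most 0.01 in both lists, 16 were shared, which is 3.56% of 450 (2.20 to 5.70) and 1.03% of 1554 (0.635 to 1.67). Strong RWPE1-ERG/mAKT peaks met any VCaP peak in 27 of 450 cases (6.0%, 4.16 to 8.59). Strong VCaP peaks met any RWPE1-ERG/mAKT peak in 58 of 1554 cases (3.73%, 2.90 to 4.79). The strict limit therefore raised the shared share of the RWPE1-ERG/mAKT list and lowered that of the VCaP list, whose strict set is the longer. With the 450 peaks of lowest p from each list, 7 were shared (1.56%), or 10 (2.22%) with peaks of very high pileup (described next) left out, so a small overlap was found at each limit tried.

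Overlap went with rank in both lists. Of the first 100 RWPE1-ERG/mAKT peaks by p-value 7.0% were shared, then 5.25% of ranks 101 to 500, 1.67% of ranks 501 to 2000 and 0.858% of the rest. In VCaP cells 0 of the first 100 were shared, which allows a share of up to 3.70% by the Wilson interval, and the later groups stood at 4.5%, 3.4% and 1.07%. Every one of those first 100 VCaP peaks had a summit pileup of at least 100 fragments, with a median fold enrichment of 2.05. The VCaP list held 304 such peaks, with pileups of up to 13710 against a list median of 9, while the highest pileup in RWPE1-ERG/mAKT cells was 94. Their median fold enrichment was 1.75, 0 of the 304 were shared, and 82.9% lay in intervals also called open by ATAC-seq in RWPE1-ERG/mAKT cells. Without them and without peaks on tandem repeats, the first 100 VCaP peaks had a shared share of 10.0% (5.52 to 17.4), followed by 5.75%, 2.6% and 1.08%. That order was the one seen in RWPE1-ERG/mAKT cells, whose values on the same terms were 8.0%, 5.0%, 1.8% and 0.839%.

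**Figure D1:**
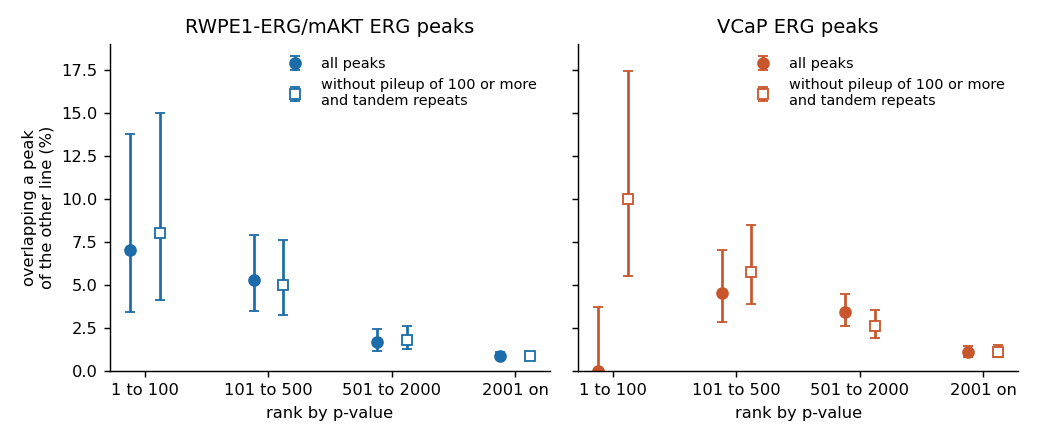
Share of ERG peaks of each line (vertical axis, %) that overlap a peak of the other line, by rank in p-value (horizontal axis), for all peaks (filled) and without peaks of pileup of 100 or more and tandem repeats (open); bars are 95% Wilson intervals. The share falls from 7.0% to 0.858% in RWPE1-ERG/mAKT cells, and in VCaP cells the first 100 peaks move from 0% to 10.0% once those peaks are left out.

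Peaks on tandem repeats with a unit of at most 6 bp belonged to 1 line or the other and used different units. In RWPE1-ERG/mAKT cells 80 peaks lay on them, 31 of AGAT and 24 of ACAT, with a median fold enrichment of 7.05, and 58 had a q of at most 0.01. In VCaP cells 40 did, 26 of AATGG (a satellite unit) and 8 of AACCCT (the telomere unit), at a median of 1.73-fold. None of either set was shared. With these and the high-pileup peaks left out, the strict overlap was 16 of 392 (4.08%) and 16 of 1278 (1.25%). Repeats of longer units were not searched for. The shared windows of SKI and SDHA shown above repeat longer stretches, so shared peaks are not free of repeats.

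At shared peaks the 2 summits lay close together, at a median of 92.5 bp (middle range 42.8 to 164). A VCaP summit was at a median of 225 kb from the summit of an RWPE1-only peak, and an RWPE1-ERG/mAKT summit was at a median of 110 kb from that of a VCaP-only peak. Near misses were few: 80 of 8999 RWPE1-only and 96 of 5805 VCaP-only peaks had a summit of the other line within 1000 bp. Most peaks called in 1 line thus had no peak of the other line nearby, rather than 1 just beyond its edge.

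Enrichment at the 114 shared peaks had a median of 4.24-fold in RWPE1-ERG/mAKT cells (2.82 to 8.72) and 4.35-fold in VCaP cells (2.59 to 7.34). It was higher in RWPE1-ERG/mAKT cells at 59 of the 114. Across these peaks the values of the 2 lines had a Spearman's rho of 0.15 and a Pearson's r of 0.18, given as a description, since the peaks of a library share its depth and both lists leave out weaker sites. At the 16 shared peaks with a q of at most 0.01 in both, the medians were 5.66-fold and 5.38-fold.

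**Figure D2:**
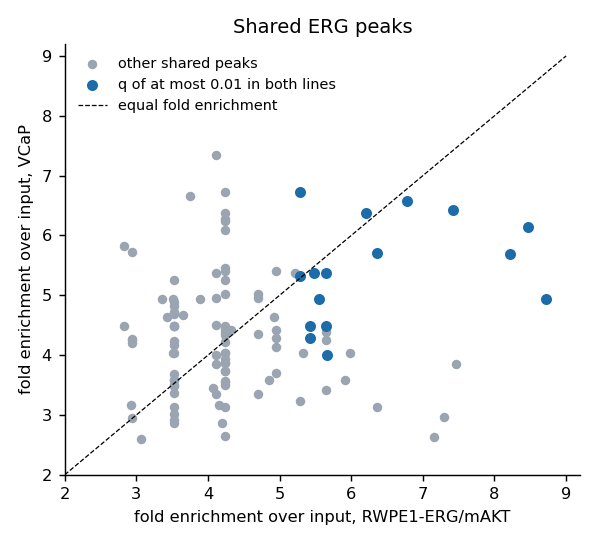
Fold enrichment over input at each of the 114 shared ERG peaks in RWPE1-ERG/mAKT cells (horizontal axis) and VCaP cells (vertical axis), with the 16 peaks of q of at most 0.01 in both lines in blue and a dashed line of equal enrichment. The points lie on both sides of the line, 59 of the 114 below it, and the rank correlation is 0.15.

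Shared peaks were mostly in open chromatin and often at promoters. Of the 114, 74.6% (65.9 to 81.7) overlapped the 33000 ATAC-seq peaks of lowest p in RWPE1-ERG/mAKT cells, against 16.3% (15.5 to 17.1) of RWPE1-only and 17.3% (16.4 to 18.3) of VCaP-only peaks. Within 1 kb of the start of a protein-coding gene lay 30.7% of shared peaks (23 to 39.7), 2.21% of RWPE1-only (1.93 to 2.54) and 9.32% of VCaP-only peaks (8.60 to 10.1). The strong RWPE1-ERG/mAKT peaks that were shared stood there in 5 of 27 cases (18.5%, 8.18 to 36.7), an interval that meets that of strong VCaP-only peaks, at 10.8% (9.35 to 12.5). Summits on exons made up 16.7%, 3.29% and 5.68%, and those in introns 43.0%, 45.6% and 42.3%. The intervals of the shared peaks do not meet those of the other classes for open chromatin or promoters over all peaks. Peaks of 1 library are not replicates, so these intervals give no test.

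Strong RWPE1-only peaks also lay in open chromatin more often than not, at 54.6% (49.8 to 59.3) of 423, while strong VCaP-only peaks did at 33.0% (30.7 to 35.4) of 1496. Without high-pileup peaks the VCaP-only share was 13.7% over all peaks, and without these and tandem repeats the strong peaks stood at 63.3% and 21.8%. The ATAC-seq is that of RWPE1-ERG/mAKT cells, so it measures their chromatin at both lists, and that of VCaP cells was not analysed here. Seen from the open regions, 4.47% of the 33000 held an RWPE1-ERG/mAKT ERG peak and 2.80% a VCaP ERG peak. An ERG peak of VCaP cells lay in 6.45% (5.30 to 7.82) of the 1474 open regions bound in RWPE1-ERG/mAKT cells, and in 2.63% (2.46 to 2.82) of the 31526 that were not. Open regions bound by ERG in RWPE1-ERG/mAKT cells thus held a VCaP peak more often than other open regions, though most of them held none.

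**Figure D3:**
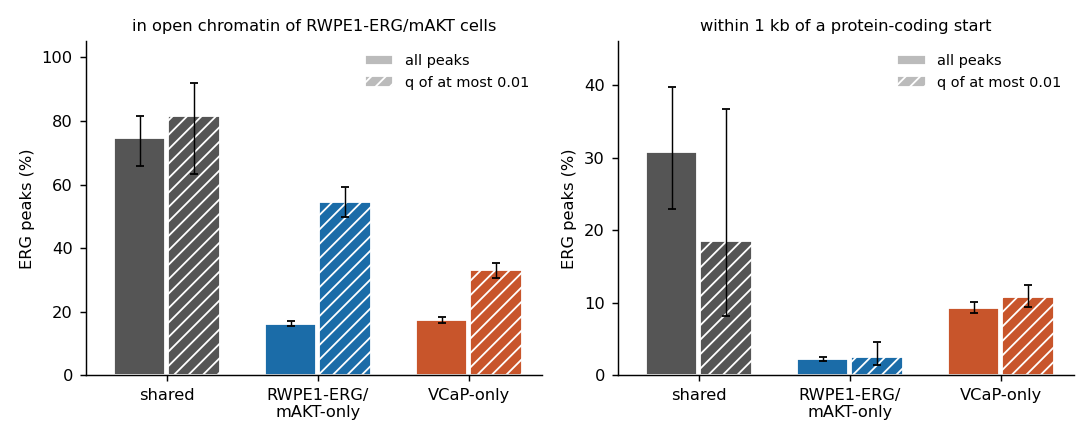
Share of ERG peaks (vertical axes, %) that lie in open chromatin of RWPE1-ERG/mAKT cells (left) and within 1 kb of a protein-coding start (right), for shared, RWPE1-only and VCaP-only peaks, all (plain) and with a q of at most 0.01 (hatched; for shared peaks, the q of the RWPE1-ERG/mAKT peak); bars are 95% Wilson intervals. Shared peaks are highest in both panels, at 74.6% and 30.7% over all peaks, and RWPE1-only peaks are lowest at promoters, at 2.21%.

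The ETS site was the word that most set shared peaks apart. It stood within 100 bp of the summit in 31.6% (23.8 to 40.6) of shared peaks, 8.81% (8.24 to 9.42) of RWPE1-only and 11.2% (10.4 to 12.0) of VCaP-only peaks. Windows of the same width centred 1 kb to either side held it in 5.70%, 4.70% and 5.17%. Windows of that width at the midpoints of the 33000 ATAC-seq peaks held it in 9.56%. Away from promoters the shares were 24.1%, 8.60% and 10.1%, so the order over open and closed chromatin together did not rest on promoter peaks. In open chromatin alone the ETS site was in 32.9% (23.9 to 43.5) of shared and 20.2% (18.2 to 22.3) of RWPE1-only peaks. Shared peaks both open and away from promoters held it in 12 of 53 cases (22.6%, 13.5 to 35.5). That interval meets the interval of all open RWPE1-only peaks, so the order is not resolved there. Among peaks with a q of at most 0.01 the shares were 40.7% (11 of 27, 24.5 to 59.3), 21.3% (17.6 to 25.4) and 15.1% (13.4 to 17.0). At this limit the intervals of shared and RWPE1-only peaks meet. Without high-pileup and repeat peaks the line-specific classes stood at 24.7% and 17.9%. GGAAGGAA, in which 2 cores follow each other, was in 7.89%, 3.27% and 3.2% of windows, and in 14.8%, 7.57% and 4.14% of those with a q of at most 0.01. The G+C share of the window was 50.7% at shared, 42.5% at RWPE1-only and 44.3% at VCaP-only peaks, with 47.5%, 43.1% and 43.6% in the flanking windows, and its part in these shares was not tested.

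The line-specific peaks also differed in their AP-1 words. Over all peaks AP-1 sites were in 8.47% (7.91 to 9.06) of RWPE1-only windows and 3.38% of their flanks, in 2.88% (2.48 to 3.34) of VCaP-only windows and 2.82% of theirs, and in 7.02% (3.6 to 13.2) of shared windows. The strong peaks were further apart. AP-1 sites were in 21.0% (17.4 to 25.2) of strong RWPE1-only peaks and 4.61% of their flanking windows. Strong VCaP-only peaks held them in 3.28% (2.49 to 4.30), with 2.84% in the flanks. Strong shared peaks held them in 4 of 27 cases. Without high-pileup and repeat peaks the line-specific shares were 24.1% and 3.77%. Strong RWPE1-only peaks in open chromatin reached 30.3% (24.7 to 36.5). The word was in 19.2% of the windows at the midpoints of the 33000 ATAC-seq peaks of these cells. An ETS site and an AP-1 site stood together in 6.62% of strong RWPE1-only peaks, 28 of the 89 with an AP-1 site, and in 0.802% of strong VCaP-only peaks. The joined word GGAAGTGA ends in the first letters of an AP-1 site and overlaps the ETS site. It was in 4.96% of strong RWPE1-only and 2.74% of strong VCaP-only peaks, against 1.54% and 1.00% of the flanks. The windows at ATAC-seq midpoints held it in 2.62%.

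Forkhead sites (TGTTTAC) leaned the other way. They were in 5.56% (5.00 to 6.18) of VCaP-only peaks and 2.89% of their flanks, and in 3.83% of RWPE1-only peaks and 3.02% of theirs. Among strong peaks the shares were 6.62% (5.47 to 7.99) in VCaP-only and 3.31% (1.98 to 5.48) in RWPE1-only, with flanks at 3.21% and 3.19%. In VCaP-only peaks with a q of at most 0.01, the forkhead word was in 8.48% of those closed in RWPE1-ERG/mAKT cells and 2.83% of those open there, or 8.70% and 4.14% without high-pileup and repeat peaks. An androgen response element, GNACANNNTGTNC, was rarer still, in 1.20% (0.762 to 1.89) of strong VCaP-only peaks and 0.201% of their flanks. Of the 423 strong RWPE1-only peaks 0 held it, which allows a share of up to 0.90%, but over all RWPE1-only peaks 42 of 8999 did (0.467%, with 0.233% in the flanks). Among shared peaks 2 of the 27 strong RWPE1-ERG/mAKT peaks held it, 1 of them near CD180. The TEAD word GGAATG was in 12.7% of VCaP-only peaks and 12.5% of their flanks, and in 14.2% (13.5 to 14.9) of RWPE1-only peaks and 10.8% (10.3 to 11.2) of theirs. A word match is not a measured binding site, and a window without one says nothing of the factor.

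**Figure D4:**
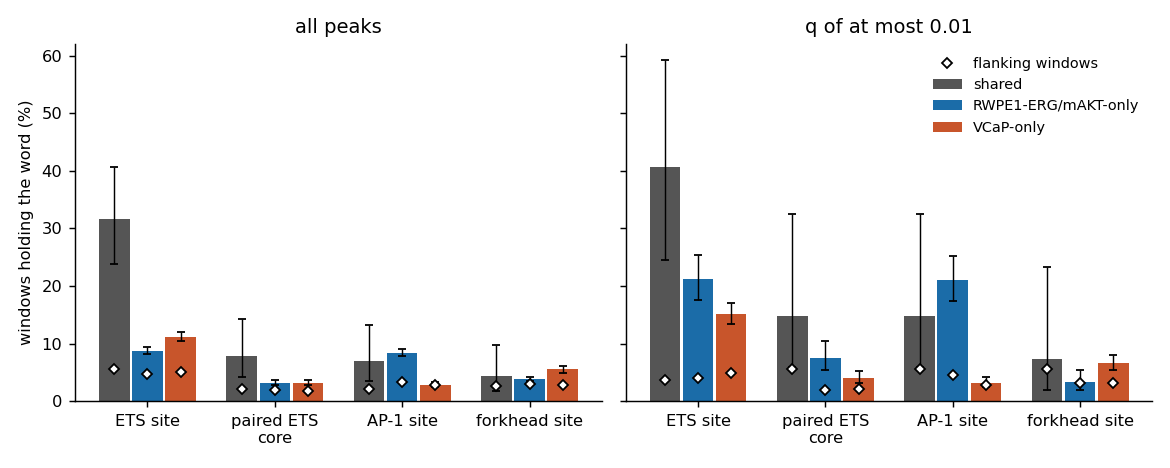
Share of summit windows of 201 bp (vertical axis, %) that hold an ETS site, a paired ETS core, an AP-1 site or a forkhead site, for shared (grey), RWPE1-only (blue) and VCaP-only (orange) ERG peaks, all (left) and with a q of at most 0.01 (right); bars are 95% Wilson intervals and diamonds are windows 1 kb to either side. The ETS site is highest at shared peaks (31.6% over all peaks), and the AP-1 site is at 21.0% of strong RWPE1-only and 3.28% of strong VCaP-only peaks.

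Words also went with rank. Without high-pileup and repeat peaks, the ETS site was in 26% of the first 100 RWPE1-ERG/mAKT peaks and 7.54% of those from rank 2001 on, and in VCaP cells in 21.0% and 9.50%. Open chromatin fell with rank in the same way, from 80.0% to 12.1% in RWPE1-ERG/mAKT cells and from 33.0% to 11.0% in VCaP cells. With the same peaks left out, strong RWPE1-only peaks held the ETS site in 29.9% of cases in open chromatin (24.3 to 36.1) and 15.7% outside it (10.5 to 22.8), and strong VCaP-only peaks in 25.2% (20.3 to 30.7) and 15.8% (13.6 to 18.3).

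The 5 strongest peaks of each line were not at the same genes. In RWPE1-ERG/mAKT cells, with the peaks called tandem repeats left out, the highest was in an intron of COL26A1, a collagen, at 37-fold, and held no ETS site. Its window is itself repetitive, with AATG in 25 copies on either strand, but it stayed under the limit set for a tandem repeat. An intron of IL4R, the interleukin 4 receptor, carried a peak of 19.8-fold (q = 2.27e-34) 2.07 kb from a start, in open chromatin. The others were an exon of ERG itself at 14-fold, a position 5.67 kb from SHOX at 13.4-fold where the reference sequence is masked, and 1 beside HBA2, an alpha-globin gene, at 12.7-fold. IL4R was expressed, at an FPKM of 17.6, while COL26A1 and HBA2 were at 0.0382 and 0.

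In VCaP cells the highest was in an intron of SETD4, a lysine methyltransferase gene, at 8.83-fold (q = 3.11e-14), outside the open chromatin of RWPE1-ERG/mAKT cells. The next lay on chromosome 6, 0.433 kb from a protein-coding start, at 8.64-fold, but BAK1, the nearest gene that the expression table lists, was 273 kb away. Introns of RPTOR, a subunit of mTOR complex 1, and of LPP, an adhesion protein gene, each had a peak of 8.52-fold, and the fifth stood 63.8 kb from GATA6-AS1 at 8.42-fold. Of the 5, 4 were closed in RWPE1-ERG/mAKT cells. The SETD4 and LPP windows and that near GATA6-AS1 held the paired core, and the SETD4 and RPTOR windows an AP-1 site.

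Peaks were spread differently over the chromosomes. Chromosome 2 held 846 RWPE1-ERG/mAKT peaks and 193 VCaP peaks, or 3.55 and 0.810 per Mb. As a share of its list, that was 2.85 times as many in RWPE1-ERG/mAKT cells, and chromosome 16 (312 against 91) stood at 2.23 times. Chromosome 22 went the other way, with 46 against 82 peaks and a ratio of 0.364. Leaving out high-pileup peaks took chromosome 2 of VCaP cells to 0.709 per Mb and chromosome 16 from 1.15 to 0.837. The copy number of each chromosome in the 2 lines was not measured here, and its part in these values was not tested.

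**Figure D5:**
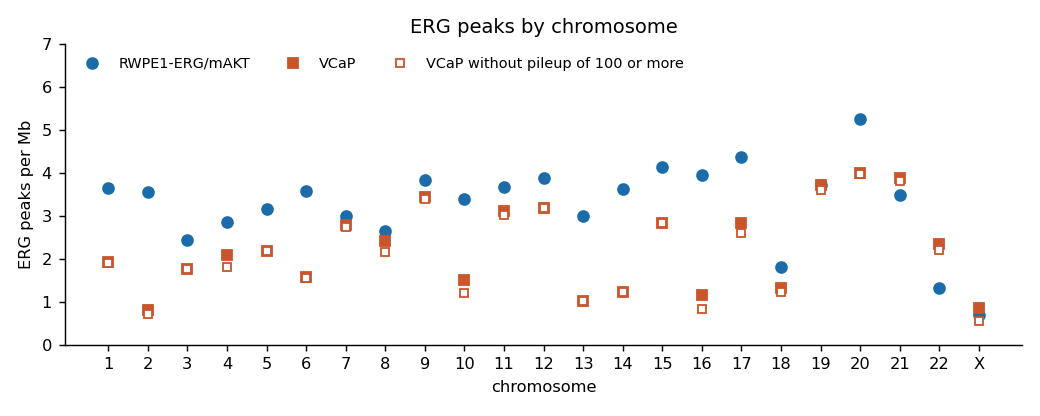
ERG peaks per Mb of known sequence (vertical axis) on each chromosome (horizontal axis) in RWPE1-ERG/mAKT cells (blue circles) and VCaP cells (orange squares; open squares without peaks of pileup of 100 or more). Chromosome 2 has 3.55 against 0.810 peaks per Mb, and chromosomes 21 and 22 have more in VCaP cells with and without the high-pileup peaks, while the order on X (0.695 against 0.860 per Mb) turns without them (0.543).

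VCaP peaks were also more clustered. The window of 1 Mb with the most VCaP peaks, at 49 to 50 Mb of chromosome 4 beside the centromere, held 58, and the 20 fullest windows held 522, or 8.82% of the list. In RWPE1-ERG/mAKT cells the fullest window, at 136 to 137 Mb of chromosome 9, held 20, and the first 20 held 264, or 2.90%. Without high-pileup and repeat peaks the fullest VCaP window, at 61 to 62 Mb of chromosome X, held 24, and the first 20 held 346, or 6.18%, while RWPE1-ERG/mAKT cells stood at 19 peaks and 262, or 2.90%.

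Each peak was given its nearest gene by the span of the gene in the expression table. RWPE1-ERG/mAKT peaks named 5761 of 25958 genes (22.2%) and VCaP peaks 3580 (13.8%). Both lists named 1667 genes (6.42%), which is 28.9% of the RWPE1-ERG/mAKT genes and 46.6% of the VCaP genes. Only 108 of the 1667 had a shared peak, so the lists had far more genes in common than positions. Genes named by both were long, with a median span of 92.0 kb against 45.9 kb for those of RWPE1-ERG/mAKT cells alone, 34.3 kb for those of VCaP cells alone and 29.5 kb over the whole table. At a q of at most 0.01 the lists named 426 and 1067 genes, with 67 in both (15.7% and 6.28%).

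Genes nearest to shared peaks were more often expressed. An FPKM of at least 1 in RWPE1-ERG/mAKT cells was reached by 46.2% of all genes in the table and by 76 of 110 genes with a shared peak (69.1%, 59.9 to 77.0), at a median of 6.74. For RWPE1-only peaks it was 2732 of 5702 (47.9%, 46.6 to 49.2), and for VCaP-only peaks 1846 of 3525 (52.4%, 50.7 to 54.0). Genes nearest to peaks of 1 line were thus near the share of the table.

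Few of these genes differed between vector and ERG/mAKT cells by pooled FPKM. Over genes that reached an FPKM of 1 in either line, 4.07% were at least 2-fold higher in ERG/mAKT cells and 2.0% at least 2-fold lower. Genes with a shared peak had 3 of 80 higher and 4 of 80 lower. With an RWPE1-only peak 87 of 2805 (3.10%) were higher and 74 (2.64%) lower, and at a q of at most 0.01 it was 10 of 223 (4.48%) and 13 (5.83%). With a VCaP-only peak 40 of 1880 (2.13%) were higher and 41 (2.18%) lower. Pooled values have no spread, so these are folds and not calls of change.

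The higher genes with a shared peak were CLDN4, GADD45G and SNORA31. CLDN4, a tight junction claudin of luminal epithelium, had an FPKM of 8.23 in vector and 17.6 in ERG/mAKT cells. Its shared peak, 2.49 kb from its span, was at 4.11-fold (q = 0.206) and 3.35-fold (q = 0.277). GADD45G, a stress gene that restrains growth, went from 0.256 to 1.17, and its peak 48.1 kb away was among the stronger shared ones at 8.72-fold and 4.93-fold. SNORA31 is a small nucleolar RNA within another gene, at 56.6 and 171. Lower were DUSP6, FLRT3, RAPGEF3 and MIR3934. FLRT3, an adhesion and FGF signalling protein, went from 5.83 to 2.15. RAPGEF3, a cAMP-activated exchange factor for RAP1, went from 1.49 to 0.528. MIR3934, a microRNA gene, was at 30.6 and then listed at 0, and such short genes are poorly measured in RNA-seq of this kind.

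The ERK feedback genes had the most shared peaks of the 9 pathway and cell type lists, with 2 of 9 members, DUSP6 and SPRY1. Shared peaks were nearest to 0.424% of all genes. DUSP6, the phosphatase that switches off ERK, went from an FPKM of 86.2 to 32.5. Its shared peak was at the promoter, 223 bp from the start, at 4.24-fold in RWPE1-ERG/mAKT cells and 4.03-fold in VCaP cells. SPRY1, an inhibitor of receptor tyrosine kinase signalling, was at 2.36 and 3.76, with a shared peak 144 bp from its start at 3.52-fold and 4.03-fold. None of these 4 values has a q of at most 0.01. The 2 promoter windows are centred on the RWPE1-ERG/mAKT summits and are shown because both lines had a peak there. They hold GGAA in 6 and 5 copies on either strand but no ETS site. Windows centred on the VCaP summits hold GGAA in 1 and 4 copies. The VCaP summit of DUSP6 lies outside the window shown.
DUSP6, chr12:89746401-89746601: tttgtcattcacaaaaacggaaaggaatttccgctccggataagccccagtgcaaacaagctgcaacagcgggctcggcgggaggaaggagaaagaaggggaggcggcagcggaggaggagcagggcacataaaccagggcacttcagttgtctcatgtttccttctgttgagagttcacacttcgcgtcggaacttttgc
SPRY1, chr4:124317706-124317906: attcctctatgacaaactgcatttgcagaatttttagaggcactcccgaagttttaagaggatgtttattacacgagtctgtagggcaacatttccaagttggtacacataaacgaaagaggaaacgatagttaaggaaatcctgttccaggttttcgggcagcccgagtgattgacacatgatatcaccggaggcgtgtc

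Other ERK feedback peaks did not overlap a peak of the other line. DUSP6 had a further RWPE1-ERG/mAKT peak 18.3 kb away at 5.87-fold (q = 0.00102) and further VCaP peaks of 4.93-fold and 4.36-fold near the gene. The 4.93-fold VCaP peak (q = 0.00146) was at the same promoter, 513 bp from the start, just beyond the edge of the RWPE1-ERG/mAKT peak there. SPRED2, which blocks RAF activation, had a VCaP peak in an intron at 4.93-fold (q = 0.00146) that held an ETS site, and 4 RWPE1-ERG/mAKT peaks of up to 4.24-fold. SPRY1 had a VCaP peak 93.5 kb away at 4.48-fold. In all 6 of the 9 genes had an RWPE1-ERG/mAKT peak and 5 a VCaP peak, with 4 in both, against 22.2%, 13.8% and 6.42% of all genes.

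ETS family genes followed with 9 of 19 near an RWPE1-ERG/mAKT peak and 8 near a VCaP peak, 5 of them both, against 22.2%, 13.8% and 6.42% of all genes. The 9 include ERG, described below. EHF, an epithelial ETS factor, had the shared peak of this list, in an intron, at 3.52-fold and 3.14-fold, with neither q at or below 0.01. ELF3, another epithelial ETS factor, went from an FPKM of 2.26 to 23.4 and had an RWPE1-ERG/mAKT peak 39.6 kb away, in open chromatin and with the ETS site shown above, at 6.38-fold (q = 0.000181). VCaP cells had no peak nearest to it. ELK4, a partner of serum response factor, had a VCaP peak in an intron 703 bp from a start at 4.93-fold (q = 0.00146). ETV1, which is rearranged in other prostate cancers, had a VCaP peak at 4.64-fold (q = 0.00204) 469 kb away.

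The ERG gene itself carried 5 RWPE1-ERG/mAKT peaks and 0 VCaP peaks. Of the 5 summits, 4 lay on exons, at 14-fold, 10.6-fold, 7.64-fold and 4.24-fold, and the fifth in an intron at 3.53-fold. The line carries an ERG cDNA, and DNA from that construct cannot be told apart from the exons of the gene. ETS1, another ETS factor, also had 4 summits on exons, at 4.34-fold to 7.06-fold, with 0 of the 4 in open chromatin and 0 with an ETS site. DNA from a construct would also lie on exons alone, and whether these 4 peaks came from such DNA was not tested. The other protein-coding genes had at most 2 exon summits each in either line, and AKT1, the other transgene, had no peak.

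TMPRSS2, the androgen-driven serine protease gene whose promoter is fused to ERG in VCaP cells, had 6 VCaP peaks and 0 RWPE1-ERG/mAKT peaks. The strongest was in an intron at 5.32-fold (q = 0.00012) and held the ETS site shown above, and 4 of the 6 windows held 1. In RWPE1-ERG/mAKT cells its FPKM was 0.0536.

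Androgen-regulated genes had 6 of 18 near an RWPE1-ERG/mAKT peak and 8 of 18 near a VCaP peak, 3 of them both and 0 with a shared peak, where the shares over all genes were 22.2%, 13.8%, 6.42% and 0.424%. KLK2, FKBP5, ACPP, NDRG1 and TMPRSS2 were near VCaP peaks alone, and KLK3 near neither. NDRG1, a stress and differentiation gene, had 4 VCaP peaks, the highest at 4.51-fold (q = 0.000555). SLC45A3, a prostate solute carrier that is itself a fusion partner of ETS genes, had an RWPE1-ERG/mAKT peak on an exon in open chromatin at 5.97-fold (q = 0.000451), with an AP-1 site. ELL2, an elongation factor, was assigned 6 RWPE1-ERG/mAKT peaks, the highest at 6.03-fold (q = 0.00058), and 1 VCaP peak at 2.84-fold. The highest RWPE1-ERG/mAKT peak and the VCaP peak lay inside the span listed for ELL2 but outside protein-coding genes. They were 106326 and 117970 bp from the nearest protein-coding start. Both lines thus had peaks assigned to genes of this list as the nearest, at different positions.

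The epithelial to mesenchymal transition and migration list leaned to RWPE1-ERG/mAKT cells, with 10 of 18 genes against 3 of 18 in VCaP cells, where the table had 22.2% and 13.8%. None of the 10 had a peak with a q of at most 0.01 there. VIM, the intermediate filament of mesenchymal cells, had an RWPE1-ERG/mAKT peak with both an ETS and an AP-1 site at 4.70-fold (q = 0.0461), and its FPKM went from 737 to 288. PLAT, the tissue plasminogen activator, had a VCaP peak at 5.03-fold (q = 0.000318). FN1, fibronectin, had a VCaP peak of 3.14-fold (q = 0.567) in an intron. ENC1, an actin-binding protein gene, had an RWPE1-ERG/mAKT peak of 3.4-fold (q = 0.701) on an exon.

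AP-1 genes had 4 of 9 (BATF, FOS, JUN and JUNB) near an RWPE1-ERG/mAKT peak and FOSB alone near a VCaP peak, against 22.2% and 13.8% of all genes. JUN had 3 RWPE1-ERG/mAKT peaks, of which the 1 with the ETS site shown above was at 5.87-fold (q = 0.00102), 25.1 kb from the gene. Its FPKM was 44.8 in vector and 36.3 in ERG/mAKT cells. The word GGAAGTGA is also in that window.

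PI3K and AKT pathway genes had 9 of 16 near an RWPE1-ERG/mAKT peak and 4 of 16 near a VCaP peak, all 4 among the 9, against 22.2%, 13.8% and 6.42% of all genes. PHLPP1, the phosphatase that removes the activating phosphate of AKT, had an RWPE1-ERG/mAKT peak on a tandem repeat at 5.65-fold (q = 0.00311) 63.0 kb away and a VCaP peak of 3.59-fold in an intron. IRS2, an adaptor of the insulin receptor, had 3 VCaP peaks, the highest at 3.53-fold (q = 0.00519), and 1 RWPE1-ERG/mAKT peak. PIK3R1, the regulatory subunit of PI3K, had a VCaP peak with an ETS site at 4.69-fold (q = 0.00173) 114 kb away.

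Basal genes had 5 of 14 near an RWPE1-ERG/mAKT peak and 4 near a VCaP peak, and luminal genes 5 and 3 of 12, where all genes had 22.2% and 13.8%. ITGA6, the basal laminin receptor, had an RWPE1-ERG/mAKT peak in an intron at 6.23-fold (q = 0.000332) and a VCaP peak at 4.03-fold elsewhere in the gene. KRT5, the basal keratin, had a peak of each line nearby, at 3.53-fold (q = 0.701) and 3.57-fold (q = 0.215), that did not overlap. KRT18 was also the gene assigned to peaks of both lines, and TP63, KRT8 and FOXA1 were assigned none. The KRT18 peaks lay inside its listed span but in introns, 24215 to 45385 bp from the nearest protein-coding start. A summit inside the spans of several genes was given to 1 of them, so KRT8 cannot be said to lack a peak.

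Endothelial genes, known targets of ERG in vessels, had 6 of 15 in each line, with PECAM1 and TEK in both, against 22.2%, 13.8% and 6.42% of all genes, though only 2 of the 15 were expressed in RWPE1-ERG/mAKT cells. VWF, the clotting factor carrier, had an RWPE1-ERG/mAKT peak on a tandem repeat at 4.83-fold (q = 0.00163) at an FPKM of 0.057. In VCaP cells CLDN5, the endothelial claudin, had peaks of 4.93-fold and 4.89-fold, and FLT1, a VEGF receptor gene, had a peak with an ETS site at 4.48-fold (q = 0.00984).

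Of the 20 genes that the study names, 11 were near an RWPE1-ERG/mAKT peak and 8 near a VCaP peak, 6 of them both, and 0 had a shared peak, against 22.2%, 13.8%, 6.42% and 0.424% of all genes. The study chose these genes on samples of this series, so their counts are not independent of it. DLG1, a polarity scaffold, had a strong peak of each line, at 7.44-fold (q = 1.62e-06) 10.4 kb from its start, outside the gene, in RWPE1-ERG/mAKT cells and 5.71-fold (q = 3.15e-05) in an intron in VCaP cells. LGR6, a stem cell receptor, had an RWPE1-ERG/mAKT peak of 4.82-fold with an ETS site and a VCaP peak of 4.69-fold (q = 0.000533), both in introns and apart. FEM1B, TP63, FOXA1, PLAU, CTGF, VCL and KRT8 were assigned no peak of either line, with the limit given above for KRT8.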

How the data were processed

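ERG ChIP-seq of RWPE1-ERG/mAKT and of vehicle-treated VCaP cells was compared, with 1 library per line. Per the study's methods, each ERG library was pooled from 3 immunoprecipitations, reads were aligned to hg19 with Bowtie2, duplicates were removed, and peaks were called per library with MACS2 against input. The submitters' processing notes also name bedtools and Cuffdiff. The deposited lists give a pileup signal, a fold enrichment ratio, and −log10 p-values and −log10 q-values per peak. The RWPE1-ERG/mAKT header names MACS2 2.1.2 and a p limit of 0.001. The VCaP list has no header, so its depth is unknown here, and 1 malformed line that repeats another peak was left out. FPKM values were made by the authors with Cuffdiff, pooled over 3 libraries per line. The fold change, p and q columns of that table hold the authors' own comparisons and were not used. The table had 0 columns of single samples.

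Peaks off the main chromosomes (0 and 226) were left out. Peak overlap means at least 1 bp. ATAC-seq of RWPE1-ERG/mAKT cells gave 41833 peaks, of which the 33000 of lowest p were taken as open chromatin. Gene parts come from protein-coding genes of GENCODE 44 mapped to GRCh37, and sequence from the GRCh37 (hg19) reference. A tandem repeat is a peak whose central 61 bp match a unit of at most 6 bp at 80% of bases or more. The nearest gene was found from the summit to the gene span that the expression table lists, which leaves out some genes, so it can be far. A summit inside several spans was given to the shortest, then to the first name. Some listed spans reach past protein-coding genes, as at ELL2. Closeness does not show that a gene is a target. Wilson intervals are at 95%. No p-value was computed, because 1 ERG library of each line was used.

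Named peaks are the 5 most enriched of each class (for shared peaks, by the lower of the 2 values), with a q of at most 0.01 and off tandem repeats. Named genes are members of the lists with a shared peak or a peak with a q of at most 0.01, and genes the study names. SNORA31, GADD45G and the other genes with a shared peak and a 2-fold difference were named after their values were seen. Comparisons, gene lists and rules were chosen with earlier results of these data known. Alternatives are in the closing section. Leaving out peaks of pileup of 100 or more was chosen after seeing the data. The code was tested on simulated intervals and sequences, with 0 errors in 2022 cases. Tables were handled with pandas 2.3.3 and numpy 2.4.6 under Python 3.11.15, sequence was read with samtools 1.23.1 through pysam 0.24.0, and figures were drawn with matplotlib 3.10.9. VCaP treated with the inhibitor, and the other RWPE1 lines, were not analysed here. Values of some members of the lists are not reported here.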

Additional observations from a re-analysis of the deposited data

Results flagged for a closer look

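The VCaP list also held 226 ERG peaks outside the main chromosomes, on unplaced and alternative sequences and 2 on the mitochondrial genome, which no comparison above used. The RWPE1-ERG/mAKT list held 0 there. Whether reads were kept on such sequences in both alignments is not stated in the sources used here.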

How the results depend on the processing

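With a q of at most 0.01 in both lists the shared share moved from 1.25% to 3.56% of RWPE1-ERG/mAKT peaks and from 1.88% to 1.03% of VCaP peaks. It was 1.56% and 1.50% with the same number of peaks (5916) from each list, 0.999% and 1.50% at an overlap of 50% of the shorter peak, and 1.69% and 2.67% for summits within 500 bp. Open chromatin moved to 54.6% of RWPE1-only and 33.0% of VCaP-only peaks with a q of at most 0.01, to 17.8% and 20.8% with all ATAC-seq peaks, and to 13.7% of VCaP-only peaks without pileups of at least 100. The ETS site moved to 50.0% of the 16 shared, 21.3% of RWPE1-only and 15.1% of VCaP-only peaks with a q of at most 0.01, and to 21.1%, 4.73% and 6.08% within 50 bp of the summit. Expressed nearest genes were 56.4%, 33.8% and 36.5% at an FPKM of at least 5. For RWPE1-only peaks they were 53.3% at a q of at most 0.01, and for genes within 50 kb they were 51.3% of RWPE1-only and 55.9% of VCaP-only. The other 14 values stayed within the interval of the value in the report, and shared peaks stood above both line-specific classes in open chromatin, ETS sites and expressed genes at each of these settings. For the 16 shared peaks with a q of at most 0.01, the open chromatin interval (50.5 to 89.8) met that of RWPE1-only peaks (49.8 to 59.3). Their interval for expressed genes (48.0 to 89.1) met those of RWPE1-only (48.5 to 58.1) and VCaP-only peaks (48.6 to 54.7). The order is thus not resolved there. The ETS site fell in the narrower window because less sequence was searched. The unknown VCaP depth, the lenient p limit and the use of 1 library per line limit every count. No paired analysis was possible because 1 library of each line was used, and no test was run.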
